A study of Homo sapiens with 12 samples.

Results

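The 10 genes described here are the DNA methyltransferases DNMT1, DNMT3A and DNMT3B, the DNMT1 cofactor UHRF1 and its paralog UHRF2, the 5-methylcytosine dioxygenases TET1, TET2 and TET3, and the nucleosome remodelling pair HELLS and CDCA7. They were taken by symbol from the 17687 named genes of the deposited expression table, and each was measured by 1 array feature. DLD1 and HCT 116 are established human colorectal cancer cell lines. Both were treated with an siRNA against BRG1 (siBRG1) or a control siRNA (siControl), which gave 4 groups of 3 single-colour Affymetrix arrays: HCT 116 siBRG1, HCT 116 siControl, DLD1 siBRG1 and DLD1 siControl. SMARCA4 encodes BRG1, a catalytic subunit of SWI/SNF complexes, which move nucleosomes. Neither the siRNA sequence nor the length of treatment is given in the sources used here. Whether a group's 3 arrays stand for 3 cultures is not stated, so the p-values cover the spread among these arrays alone, which could be technical.

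In mammals, DNMT3A and DNMT3B place methyl groups on unmethylated CpG dinucleotides, and DNMT1 copies the pattern onto the new strand behind the replication fork. UHRF1 binds hemimethylated CpG and recruits DNMT1 there, and HELLS, activated by CDCA7, opens nucleosomal DNA to the methyltransferases. TET enzymes oxidise 5-methylcytosine, which leads to its loss by dilution or by base excision repair, and colorectal cancers are known for CpG island hypermethylation beside global loss of methylation. No DNA methylation was measured here: all values are RNA levels, in log2 units of the deposited scale, and a difference of 1 unit is a 2-fold difference on that scale. The authors' scale holds a step that the labels do not name, so a fold given here need not equal the fold in RNA.

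Many genes used in S phase carry an E2F-type motif near their start site. The promoter windows shown are from the genes that hold such a motif. Beside them stands the 1 listed window of DNMT3B, the gene of largest change in HCT 116 among the 10. The letters TTTCCCGC, TTTCGCGC, TTTGCCGC and TTTGGCGC were searched on both strands of the RefSeq promoter windows (GRCh38.p14), which run from 250 bases before to 50 bases after an annotated start. One or more of them stood in 3.31% of all 35116 windows, in 5 of the 21 windows of the 10 genes, and in 4 of the 10 genes (UHRF1, CDCA7, HELLS and DNMT1) against 3.99% of all 27305 genes. DNMT3A, with 6 listed windows, held none, and its windows are not shown. Capitals mark the motif, each window is written 5′ to 3′ on the gene's own strand, and no matches overlapped each other.
UHRF1, first listed window, chr19:4909251-4909550, plus strand: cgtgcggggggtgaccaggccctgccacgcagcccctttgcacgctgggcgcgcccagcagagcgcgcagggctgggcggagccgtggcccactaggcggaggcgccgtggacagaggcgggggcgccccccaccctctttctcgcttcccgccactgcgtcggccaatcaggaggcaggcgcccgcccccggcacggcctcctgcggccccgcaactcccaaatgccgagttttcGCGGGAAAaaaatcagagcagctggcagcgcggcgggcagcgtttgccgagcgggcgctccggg
CDCA7, chr2:173354622-173354921, plus strand: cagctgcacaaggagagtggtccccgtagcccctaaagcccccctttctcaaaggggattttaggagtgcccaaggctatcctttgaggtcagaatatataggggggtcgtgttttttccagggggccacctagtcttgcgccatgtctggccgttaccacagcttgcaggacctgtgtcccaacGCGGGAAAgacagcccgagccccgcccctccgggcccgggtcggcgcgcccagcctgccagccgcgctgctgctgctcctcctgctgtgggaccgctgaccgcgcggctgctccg
HELLS, chr10:94545538-94545837, plus strand: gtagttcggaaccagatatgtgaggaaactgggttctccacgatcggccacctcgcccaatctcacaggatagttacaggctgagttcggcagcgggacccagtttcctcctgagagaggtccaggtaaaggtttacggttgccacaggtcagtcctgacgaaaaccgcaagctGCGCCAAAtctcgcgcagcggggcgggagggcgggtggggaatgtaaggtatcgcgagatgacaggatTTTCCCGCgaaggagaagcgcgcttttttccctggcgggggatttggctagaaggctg
DNMT1, chr19:10194904-10195203, minus strand: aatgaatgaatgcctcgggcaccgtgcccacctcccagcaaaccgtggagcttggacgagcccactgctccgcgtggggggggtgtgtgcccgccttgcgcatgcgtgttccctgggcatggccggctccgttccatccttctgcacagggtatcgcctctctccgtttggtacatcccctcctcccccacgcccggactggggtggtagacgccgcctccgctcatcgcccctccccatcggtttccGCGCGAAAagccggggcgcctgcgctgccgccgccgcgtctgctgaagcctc
DNMT3B, chr20:32779602-32779901, plus strand, which holds no match: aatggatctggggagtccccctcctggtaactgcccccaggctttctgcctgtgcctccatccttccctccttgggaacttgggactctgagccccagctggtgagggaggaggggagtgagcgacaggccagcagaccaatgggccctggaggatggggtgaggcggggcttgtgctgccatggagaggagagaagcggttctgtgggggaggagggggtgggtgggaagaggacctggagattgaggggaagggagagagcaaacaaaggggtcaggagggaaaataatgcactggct

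Counting the start base as 1, the matches began at position -14 in UHRF1, at -65 in CDCA7, at -76 and -8 in HELLS and at -2 in DNMT1. A second UHRF1 window held TTTCGCGC at position -160. The windows shown also differed in CpG content. The only listed DNMT3B window has 3 CpG dinucleotides, against 36 in the first UHRF1 window, 30 in DNMT1, 22 in HELLS and 20 in CDCA7. Starts of DNMT3B outside the listed window were not searched, and the start used in these cells was not measured. The motif hits are matches of letters in a reference sequence. Binding of any factor was not measured, and the absence of these letters from a window says nothing on binding elsewhere.

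The siRNA target was low wherever the label said so. SMARCA4 read 6.78, 6.39 and 7.03 in HCT 116 siBRG1, against 10.12, 10.15 and 9.59 in HCT 116 siControl, and 6.29, 6.55 and 6.31 in DLD1 siBRG1, against 10.31, 9.95 and 10.29 in DLD1 siControl. It averaged 6.73 ± 0.32 in HCT 116 siBRG1 and 9.95 ± 0.32 in HCT 116 siControl arrays, and 6.39 ± 0.14 in DLD1 siBRG1 and 10.18 ± 0.20 in DLD1 siControl arrays (SD, n = 3 each). Array medians lay between 6.36 and 6.50, and there are no detection calls, so a value below its array's median cannot be told from background. Of 7 epithelial markers, 6 lay above the array median in each group, with VIL1 below it. Of 11 measured fibroblast, immune and endothelial markers, 1 lay above it in 3 of the groups and 2 in DLD1 siControl. The summed level of these 11 ranged over 51.7 to 53.1 log2 units in HCT 116 siBRG1, 50.6 to 54.9 in HCT 116 siControl, 50.2 to 52.4 in DLD1 siBRG1 and 50.8 to 52.1 in DLD1 siControl arrays.

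In HCT 116 cells, BRG1 knockdown went with less UHRF1 and less DNMT3B mRNA. These were the 2 of 10 genes that passed the test (limma, Benjamini-Hochberg adjusted p under 0.05 over all 17687 genes), both lower, while 6.95% of all genes passed in either direction, 4.13% passed as lower and 2.82% as higher. All-gene calls split into 499 higher and 731 lower, or 615 higher and 565 lower after centring each array on its median. At an unadjusted p under 0.05 there were 7 of the 10, against 20.4% of all genes. The median change of the 10 was -0.57 log2 units, with 6 genes below 0, beside a median of -0.01 and 51.9% below 0 for all genes. In DLD1 cells 0 of the 10 passed in limma, against 0.198% of all genes (0.130% lower and 0.0678% higher), and 4 had an unadjusted p under 0.05 (DNMT3A, UHRF1, TET3 and CDCA7), against 10.5%. Their median change in DLD1 was -0.19, with 7 genes below 0, beside 0.01 and 47.9% for all genes. An RNA level from a bulk culture cannot tell fewer expressing cells from less RNA per cell.

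UHRF1, the reader of hemimethylated CpG that brings DNMT1 to replicated DNA, read 11.08, 11.13 and 10.95 on the HCT 116 siBRG1 arrays, against 12.02, 12.11 and 12.05 on the HCT 116 siControl arrays. Every siBRG1 array lay below every siControl array. The change was -1.01 ± 0.18 (SE), 2.01-fold lower, with a limma adjusted p of 0.00429, and the call held when any 1 of the 12 arrays was left out. In DLD1 the values were 10.83, 11.10 and 10.49 with siBRG1, against 11.25, 11.34 and 11.55 with siControl. These groups did not overlap either, and the change of -0.58 ± 0.18 had a limma adjusted p of 0.233. The change in HCT 116 minus that in DLD1 was -0.43, with an adjusted p of 0.711.

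DNMT1, the maintenance methyltransferase itself, gave 9.41, 9.45 and 9.45 in HCT 116 siBRG1, against 10.08, 9.76 and 9.59 in HCT 116 siControl. The siBRG1 arrays were lower without overlap, but the change of -0.37 did not pass (limma adjusted p 0.284, 95% interval of the change -0.78 to 0.03). DLD1 values were 9.35, 9.32 and 8.95 with siBRG1, against 9.55, 9.18 and 9.49 with siControl, which overlap (change -0.20, adjusted p 0.818). UHRF2, the UHRF1 paralog, averaged 11.06 ± 0.18 in HCT 116 siBRG1 and 10.79 ± 0.30 in HCT 116 siControl, and 10.43 ± 0.78 in DLD1 siBRG1 and 10.45 ± 0.49 in DLD1 siControl (SD, n = 3). Its intervals, -0.44 to 0.99 in HCT 116 and -0.74 to 0.69 in DLD1, include changes in both directions. In DLD1 its spread was the widest of the 10 genes among siBRG1 arrays, 9.56 to 11.09.

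**Figure D1:**
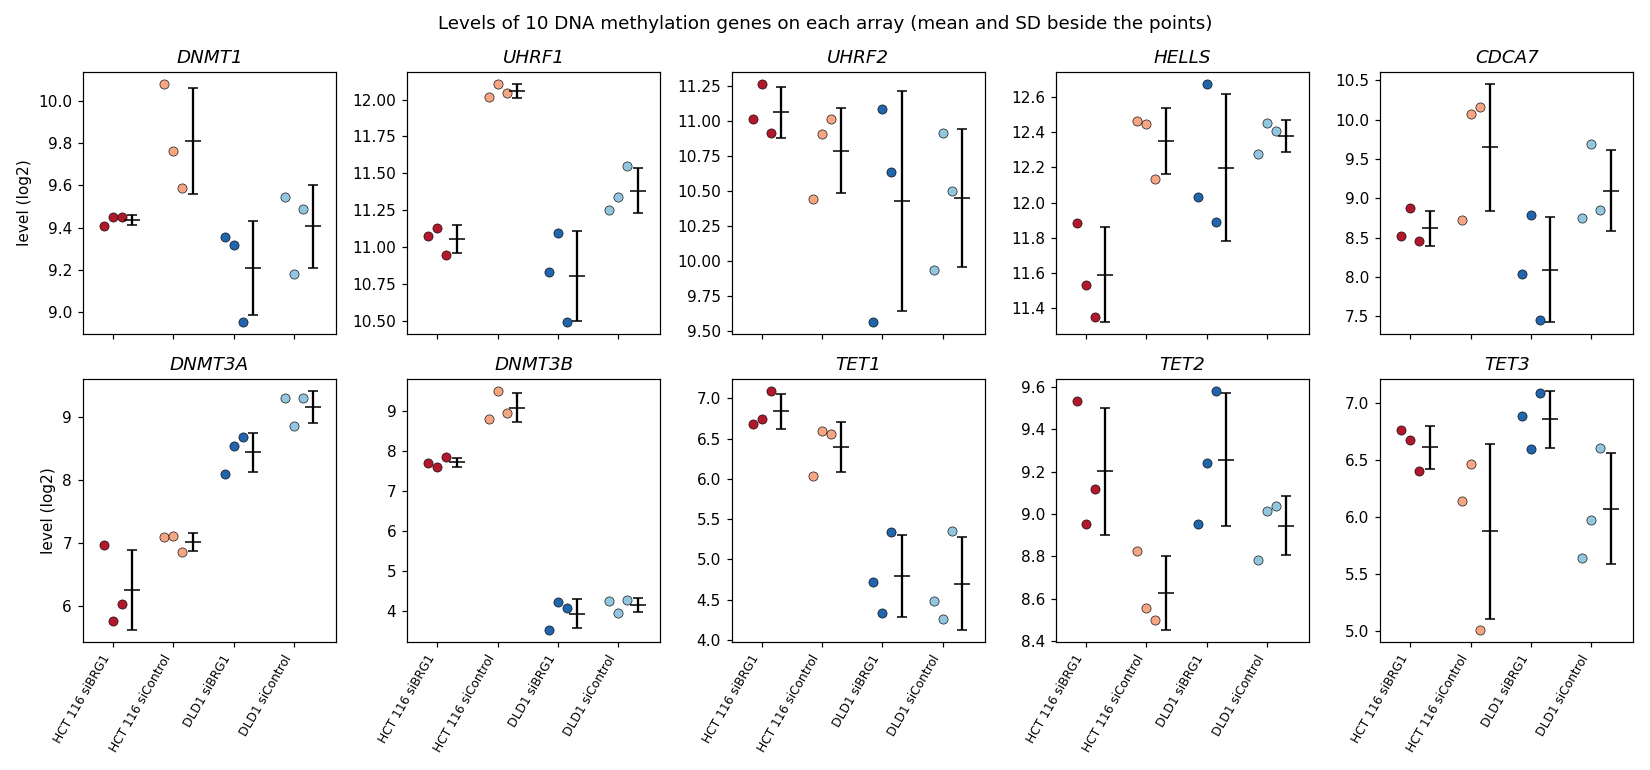
RNA level of each of the 10 genes on every array, in log2 units of the deposited scale, with 1 panel per gene; points are arrays, and bars are the group mean and SD (n = 3). UHRF1 and DNMT3B in HCT 116 siBRG1 lie below all their siControl arrays, and DNMT3B in DLD1 lies below the array medians of 6.36 to 6.50 in every array.

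HELLS, the SNF2-family remodelling ATPase, read 11.88, 11.53 and 11.35 in HCT 116 siBRG1, against 12.47, 12.45 and 12.13 in HCT 116 siControl. The groups did not overlap, and the change of -0.76 ± 0.22 stood at the edge of the threshold, with a limma adjusted p of 0.0507. Over 20 other settings its adjusted p ranged between 0.0212 and 0.189, and it passed under 7 of them; leaving out DLD1 siBRG1 replicate 2, DLD1 siBRG1 replicate 3 or HCT 116 siBRG1 replicate 1 gave 0.0283, 0.0472 and 0.0383. In DLD1, HELLS averaged 12.20 ± 0.42 with siBRG1 and 12.38 ± 0.09 with siControl (SD, n = 3), an overlapping pair of groups with an adjusted p of 0.87.

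CDCA7, the zinc finger activator of HELLS, gave 8.52, 8.88 and 8.46 in HCT 116 siBRG1, against 8.72, 10.07 and 10.16 in HCT 116 siControl. HCT 116 siControl replicate 1 lay within the siBRG1 range. The change of -1.03 ± 0.39 had a limma adjusted p of 0.134, and without that array it was -1.49 with an adjusted p of 0.0207 (range over 20 alternatives 0.0207 to 0.364). DLD1 values were 8.04, 8.79 and 7.45 with siBRG1, against 8.75, 9.69 and 8.85 with siControl. The DLD1 groups overlapped by 1 array, each siBRG1 array lay below the siControl array of the same number, and the change was -1.01 ± 0.39 (adjusted p 0.355). The CDCA7 changes in HCT 116 and DLD1 differed by -0.02, with an adjusted p of 0.995.

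DNMT3B, one of the de novo methyltransferases, had the largest change of the 10 genes in HCT 116. Its level was 7.70, 7.60 and 7.85 in HCT 116 siBRG1, against 8.81, 9.50 and 8.95 in HCT 116 siControl, with no overlap. This is a change of -1.37 ± 0.22, 2.58-fold lower, with a limma adjusted p of 0.00226, and it passed in each of the 12 fits that left out 1 array (changes of -1.51 to -1.16). In DLD1 the level was 3.54, 4.22 and 4.07 with siBRG1, against 4.25, 3.96 and 4.29 with siControl. All 6 DLD1 arrays lay below their array medians, so a DLD1 change in DNMT3B could not be read against background. The difference between the lines, -1.15 ± 0.32 (95% interval -1.82 to -0.47), had an adjusted p of 0.188. DNMT3B was the 1 of 10 genes with an unadjusted p under 0.05 for that difference, against 8.99% of all genes, and 0 of 10 passed after adjustment, against 0.334%.

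DNMT3A, the other de novo methyltransferase, read 6.97, 5.77 and 6.02 in HCT 116 siBRG1, against 7.09, 7.11 and 6.85 in HCT 116 siControl. HCT 116 siBRG1 replicate 1 overlapped the siControl arrays, and siBRG1 replicates 2 and 3 lay below the array medians. The change was -0.76 ± 0.27 (limma adjusted p 0.113); without that replicate 1 it was -1.12 with an adjusted p of 0.0119, in a range of 0.0119 to 0.363 over 20 alternatives. In DLD1 the level was 8.10, 8.54 and 8.69 with siBRG1, against 9.31, 8.87 and 9.31 with siControl. The DLD1 groups did not overlap, and the change of -0.72 ± 0.27 had an adjusted p of 0.341. The difference between the lines was -0.04, with a 95% interval of -0.87 to 0.78.

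The 3 TET dioxygenases had positive changes in both lines, and none passed the test in either. TET2 gave 9.53, 8.95 and 9.12 in HCT 116 siBRG1, against 8.82, 8.55 and 8.50 in HCT 116 siControl, a non-overlapping change of 0.58 ± 0.21 (limma adjusted p 0.118). In DLD1, TET2 averaged 9.26 ± 0.32 with siBRG1 and 8.94 ± 0.14 with siControl (SD, n = 3; change 0.31, adjusted p 0.686). TET3 read 6.76, 6.67 and 6.40 in HCT 116 siBRG1, against 6.14, 6.47 and 5.01 in HCT 116 siControl. The HCT 116 arrays overlap, several of them lie near or below the array medians, and the change was 0.74 ± 0.33 (adjusted p 0.21).

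In DLD1, TET3 gave 6.89, 6.60 and 7.09 with siBRG1, against 5.64, 5.97 and 6.61 with siControl, overlapping by 1 array (change 0.79 ± 0.33, limma adjusted p 0.393). Only 1 of the 3 DLD1 siControl arrays put TET3 above the array median. TET1 read 6.68, 6.74 and 7.09 in HCT 116 siBRG1, against 6.03, 6.59 and 6.56 in HCT 116 siControl. The siBRG1 arrays were higher without overlap, close to the array medians, with a change of 0.45 ± 0.30 and an adjusted p of 0.456. All 6 DLD1 arrays put TET1 below the array median, with means of 4.80 ± 0.51 for siBRG1 and 4.70 ± 0.57 for siControl (SD, n = 3). That change of 0.10 turned its sign without DLD1 siBRG1 replicate 3 (-0.18), DLD1 siControl replicate 1 (-0.01) or DLD1 siControl replicate 2 (-0.12).

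Counted over the 10 genes, siBRG1 and siControl arrays did not overlap for 4 lower genes (DNMT1, DNMT3B, UHRF1 and HELLS) and 2 higher genes (TET1 and TET2) in HCT 116, against 13.0% of all genes lower and 11.9% higher. In DLD1 they did not overlap for 2 lower genes (DNMT3A and UHRF1) and 0 higher genes, against 7.19% lower and 8.33% higher.

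**Figure D2:**
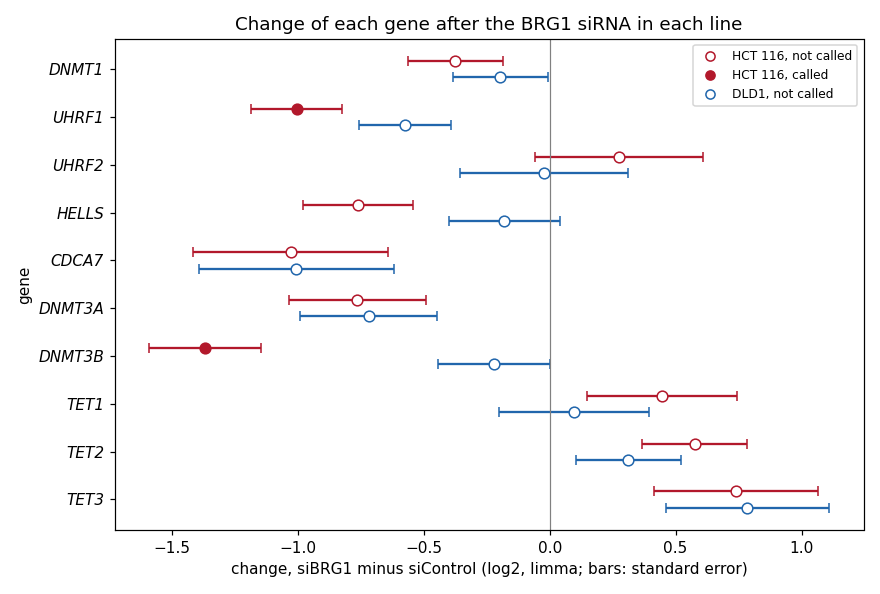
Change with siBRG1 (siBRG1 minus siControl, log2 units) of the 10 genes in HCT 116 and in DLD1; bars are the standard error from limma, and filled points passed at an adjusted p under 0.05. Filled points are DNMT3B at -1.37 and UHRF1 at -1.01 in HCT 116, and the TET genes lie above 0 in both lines, TET1 in DLD1 at 0.10 with an error bar that crosses 0.

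With the changes of both lines averaged in 1 fit, 4 of 10 genes were lower and 0 higher at an adjusted p under 0.05, against 8.68% of all genes called, 4.68% lower and 4.01% higher; 8 of the 10 had an unadjusted p under 0.05, against 21.5%. The 4 were CDCA7 (-1.02 ± 0.27, limma adjusted p 0.0329), DNMT3B (-0.80 ± 0.16, adjusted p 0.0073), UHRF1 (-0.79 ± 0.13, adjusted p 0.00222) and DNMT3A (-0.74 ± 0.19, adjusted p 0.0281). The DNMT3B and UHRF1 calls held in all 12 fits that left out 1 array, though the DLD1 arrays that enter the DNMT3B value lie below the array medians. The DNMT3A call held in 6 of 12 and was lost without DLD1 siBRG1 replicate 1, DLD1 siControl replicate 1 or 3, HCT 116 siBRG1 replicate 2 or 3, or HCT 116 siControl replicate 2, where the adjusted p reached 0.0715. The CDCA7 call held in 4 of 12 and was lost without replicate 1 or 3 of either line's siBRG1 arrays, or replicate 2 or 3 of either line's siControl arrays, where the adjusted p reached 0.096. TET3 (0.76 ± 0.23, adjusted p 0.0536), HELLS (-0.47 ± 0.16, adjusted p 0.0773) and TET2 (0.44 ± 0.15, adjusted p 0.079) did not pass. TET3 passed without DLD1 siControl replicate 3 or HCT 116 siControl replicate 2 (adjusted p 0.037 and 0.0306), HELLS without DLD1 siBRG1 replicate 2 (0.0239), and TET2 without DLD1 siBRG1 replicate 1 (0.0425). Over all alternatives the adjusted p of these ranged over 0.0161 to 0.137 for TET3, 0.0239 to 0.201 for HELLS and 0.0251 to 0.205 for TET2. TET3 lay above the array median on 1 of 3 siControl arrays in each line, so the size of its change depends on the background of its feature.

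RNA levels of the de novo enzymes DNMT3A and DNMT3B differed between the lines themselves. Between control arrays (HCT 116 siControl minus DLD1 siControl), 3 of 10 genes were higher and 1 lower (limma), against 27.6% of all genes called, 13.6% higher and 14.0% lower. At an unadjusted p under 0.05 there were 5 of the 10, against 36.2% of all genes. Arrays of the lines did not overlap for 4 higher genes (DNMT1, DNMT3B, UHRF1 and TET1) and 1 lower gene (DNMT3A), against 20.3% and 19.7% of all genes. DNMT3B averaged 9.09 ± 0.37 in HCT 116 siControl and 4.16 ± 0.18 in DLD1 siControl (SD, n = 3), a difference of 4.92 ± 0.22 (limma adjusted p 1.99e-10). Since DNMT3B in DLD1 lies below the array medians, the size of that difference depends on the background of the feature. DNMT3A went the other way, at 7.02 ± 0.14 in HCT 116 siControl and 9.16 ± 0.25 in DLD1 siControl, 4.42-fold lower in HCT 116 (adjusted p 2.05e-05).

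TET1 averaged 6.39 ± 0.31 in HCT 116 siControl and 4.70 ± 0.57 in DLD1 siControl (SD, n = 3), a difference of 1.69 ± 0.30 (limma adjusted p 4.55e-04) with the DLD1 values below the array medians. UHRF1 was 0.68 ± 0.18 higher in HCT 116 siControl (adjusted p 0.0111, range over 19 alternatives 0.00596 to 0.047). DNMT1 was higher in all 3 HCT 116 siControl arrays than in any DLD1 siControl array, with a difference of 0.40 and an adjusted p of 0.135. CDCA7 averaged 9.65 ± 0.81 in HCT 116 siControl and 9.10 ± 0.52 in DLD1 siControl, and passed only without HCT 116 siControl replicate 1 (difference 1.02, adjusted p 0.0458, range over 19 alternatives 0.0458 to 0.685). HELLS averaged 12.35 ± 0.19 in HCT 116 siControl and 12.38 ± 0.09 in DLD1 siControl.

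Over the 12 arrays, Pearson's r between DNMT3B and DNMT3A was -0.82 and between DNMT3B and TET1 it was 0.87, and all 3 genes differed between the lines. UHRF1 had an r of 0.82 with CDCA7, 0.81 with DNMT1 and -0.79 with TET2. The 12 points share 2 lines and 2 siRNAs, so these are descriptions only. Among all other genes, the pattern most like UHRF1 was that of LRRCC1, a centrosomal protein gene (r = 0.974 over 12 arrays, 0.98 within the 6 HCT 116 arrays and 0.98 within the 6 DLD1 arrays), then RBM14, an RNA-binding protein gene (0.967 over 12, 0.98 and 0.97 within the lines). LRRCC1 changed by -2.04 ± 0.23 in HCT 116 (limma adjusted p 1.40e-04) and by -0.95 ± 0.23 in DLD1 (adjusted p 0.115). It was picked for its likeness to UHRF1 on these same arrays, so its change is no separate evidence. The patterns most like DNMT3B were those of DBN1, an actin-binding protein gene, and DCXR, a carbonyl reductase gene, both at r = 0.989 over 12 arrays, with r of 0.95 and 0.97 within HCT 116 and of 0.42 and -0.40 within DLD1, where DNMT3B lies below the array medians.

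Among 24 measured partners of the methylation enzymes (chromatin and CpG-binding proteins), 3 were lower and 0 higher in HCT 116 at the adjusted threshold (limma), with a list median of -0.17, beside 4.13% of all genes lower and 2.82% higher. CXXC5, a CXXC zinc finger protein, averaged 8.10 ± 0.11 in HCT 116 siBRG1 and 9.79 ± 0.76 in HCT 116 siControl (SD, n = 3; change -1.69 ± 0.31, adjusted p 0.00445). EHMT2, a histone H3 lysine 9 methyltransferase, averaged 10.56 ± 0.27 in HCT 116 siBRG1 and 11.73 ± 0.08 in HCT 116 siControl (change -1.17 ± 0.18, adjusted p 0.00149). CXXC1, which binds unmethylated CpG in the SETD1 histone methyltransferase complexes, changed by -0.90 ± 0.19 (adjusted p 0.0106, and 0.0558 without HCT 116 siBRG1 replicate 3, in a range of 0.00469 to 0.0558 over 20 alternatives).

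In DLD1, 0 of these 24 partners passed limma's adjusted threshold (0.198% of all genes), 1 had an unadjusted p under 0.05 (10.5% of all genes), and the list median was -0.10. BEND3, a repressor that binds unmethylated CpG, changed by -0.67 ± 0.20 in DLD1 (adjusted p 0.212), and TRIM28, a corepressor of zinc finger proteins, by -0.41 ± 0.20 (adjusted p 0.493). BEND3 lay above the array median on 0 of 3 DLD1 siBRG1 and 1 of 3 DLD1 siControl arrays, so its change could not be read against background. CXXC5 changed there by 0.00 and EHMT2 by 0.10. The difference between the lines was -1.69 for CXXC5 (limma adjusted p 0.153, range over 19 alternatives 0.0169 to 0.334), and it passed with array weights (0.0239) and without HCT 116 siControl replicate 1 (-2.11, adjusted p 0.0169). For EHMT2 it was -1.27 (adjusted p 0.0526, range 0.0149 to 0.153), and it passed under 5 of 19 alternatives, among them without DLD1 siBRG1 replicate 1 (0.0497) and without HCT 116 siBRG1 replicate 1 (0.0274). Between control arrays, 5 of the 24 were higher and 1 lower in HCT 116, against 13.6% and 14.0% of all genes.

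Of 7 measured readers of methylated CpG, 1 was higher and 0 lower in HCT 116, against 2.82% and 4.13% of all genes. ZBTB38, a zinc finger protein that binds methylated CpG, averaged 12.75 ± 0.25 in HCT 116 siBRG1 and 11.93 ± 0.17 in HCT 116 siControl (SD, n = 3; change 0.83 ± 0.21, limma adjusted p 0.0301). That call was lost without any 1 of the HCT 116 siBRG1 arrays or without HCT 116 siControl replicate 2 or 3, with adjusted p of 0.0583 to 0.104 (range over 20 alternatives 0.0102 to 0.104). In DLD1, ZBTB38 averaged 13.89 ± 0.32 with siBRG1 and 13.21 ± 0.25 with siControl, a change of 0.68 ± 0.21 without overlap (adjusted p 0.227). ZBTB4, a related reader, changed by 0.87 ± 0.24 in DLD1 (adjusted p 0.165), with all 3 DLD1 siControl arrays below their array medians. In DLD1, 0 of 7 readers passed in limma and 2 had an unadjusted p under 0.05, against 10.5% of all genes.

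Downstream of the TET enzymes, 18 genes of oxidised base removal and 2-oxoglutarate supply were measured, of which 1 was higher and 2 lower in HCT 116 and 0 passed in DLD1 (limma; 1 of 18 at an unadjusted p under 0.05). Of all genes, 6.95% passed in HCT 116 and 0.198% in DLD1, and 10.5% had such an unadjusted p in DLD1. TDG, the glycosylase that excises oxidised methylcytosine, averaged 10.77 ± 0.36 in HCT 116 siBRG1 and 9.63 ± 0.44 in HCT 116 siControl (SD, n = 3; change 1.15 ± 0.27, adjusted p 0.0182). It did not pass without HCT 116 siBRG1 replicate 2 or 3 or HCT 116 siControl replicate 1, where the adjusted p was 0.083, 0.0671 and 0.0613 (range over 20 alternatives 0.00249 to 0.083). IDH1, a cytosolic source of the TET cosubstrate 2-oxoglutarate, averaged 10.50 ± 0.29 in HCT 116 siBRG1 and 12.06 ± 0.32 in HCT 116 siControl (change -1.56 ± 0.28, adjusted p 0.0045). PARP1, a DNA break sensor, changed by -0.75 ± 0.16 (adjusted p 0.0122, and 0.0555 and 0.0581 without HCT 116 siBRG1 replicate 3 or HCT 116 siControl replicate 2, in a range of 0.00267 to 0.0581). In DLD1, POLB, the repair polymerase, changed by 0.47 ± 0.21 (adjusted p 0.447) and LIG3, a DNA ligase, by -0.43 ± 0.23 (adjusted p 0.565).

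The supply of methyl donors showed no called gene among 17 measured in either line (limma), with 4 in HCT 116 and 3 in DLD1 at an unadjusted p under 0.05, against 20.4% and 10.5% of all genes. TYMS, which draws on the same folate pool to make thymidylate, changed by -0.61 ± 0.19 in HCT 116 (adjusted p 0.0795) and by -0.61 ± 0.19 in DLD1 (adjusted p 0.24). AHCY, which clears the methylation product S-adenosylhomocysteine, changed by -0.57 ± 0.23 in HCT 116 (limma adjusted p 0.169). MTHFD1L, a mitochondrial folate enzyme, changed by -0.80 ± 0.20 in DLD1 (adjusted p 0.124); with the replicate number as a block, which pairs the DLD1 arrays, it passed with an adjusted p of 0.0496 (range over 20 alternatives 0.0496 to 0.558). That block raised the all-gene DLD1 count of calls to 98, against 35 without it. With both lines averaged, 2 of the 17 were lower and 0 higher (limma), against 4.68% and 4.01% of all genes. TYMS changed by -0.61 ± 0.14 (adjusted p 0.0146) and passed under 19 of 19 alternatives. MTHFD1L changed by -0.50 ± 0.14 (adjusted p 0.0377) and passed under 9 of 19.

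Among germline genes that CpG methylation is known to keep silent in somatic cells, such as the MAGE genes, no gene passed with the siRNA. In limma 0 of 35 measured passed in either line, against 6.95% of all genes in HCT 116 and 0.198% in DLD1. At an unadjusted p under 0.05 there were 1 in HCT 116 and 2 in DLD1, against 20.4% and 10.5% of all genes. The list medians were -0.16 in HCT 116 and -0.01 in DLD1. MAGEB2 was bright in HCT 116 (12.91 ± 0.23 with siBRG1 and 13.38 ± 0.43 with siControl) and below the array medians in DLD1 (4.83 ± 0.68 with siBRG1 and 4.39 ± 0.36 with siControl; SD, n = 3). Between control arrays 6 of 35 were higher in HCT 116 and 0 lower, against 13.6% and 14.0% of all genes. The MAGEB2 difference was 8.98 (adjusted p 1.04e-11), a size that depends on the background of its feature in DLD1. SSX1, also among the 6, lay below the array median on every array, at 4.77 ± 0.47 in HCT 116 siControl and 3.90 ± 0.29 in DLD1 siControl, and its call was lost without DLD1 siControl replicate 2 or HCT 116 siControl replicate 2 (adjusted p 0.068 and 0.0789). STK31 and XAGE2, the genes of the list with the largest DLD1 changes (-0.54 and 0.52, adjusted p 0.543 and 0.451), also lay below the array medians on every array.

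Genes of DNA replication, the process that maintenance methylation follows, were also lower in HCT 116. In HCT 116, 27 of 49 replication and S phase genes were lower and 0 higher at the adjusted threshold (limma), with a median change of -0.73, beside 4.13% of all genes lower. Like the 10 genes and the other lists, this list was chosen with earlier results of these data known, so its share is a description. UNG, a uracil glycosylase, changed by -1.74 ± 0.29, GINS2, a replicative helicase subunit, by -1.66 ± 0.26, CDT1, a helicase loading factor, by -1.54 ± 0.29, and FEN1, the flap endonuclease, by -1.48 ± 0.20. In DLD1, 0 of 49 passed, 18 had an unadjusted p under 0.05 (10.5% of all genes), 42 were below 0 (against 47.9% of all genes) and the median was -0.31. LIG1, the ligase of lagging strand synthesis, changed there by -1.07 ± 0.34 (adjusted p 0.232), and DSCC1, a subunit of a clamp loader, by -0.97 ± 0.26 (adjusted p 0.15). For the average of both lines 27 of the 49 were lower, LIG1 and DSCC1 among them, and 0 higher. Of all genes 4.68% and 4.01% passed there. For the difference between the lines 0 of 49 passed (0.334% of all genes), and 11 had an unadjusted p under 0.05, against 8.99%. CDKN1A, which encodes the cyclin-dependent kinase inhibitor p21, averaged 14.11 ± 0.21 in HCT 116 siBRG1 and 11.52 ± 0.33 in HCT 116 siControl (SD, n = 3; change 2.59 ± 0.43, adjusted p 0.00237). In DLD1, CDKN1A averaged 8.15 ± 1.04 with siBRG1 and 8.22 ± 0.72 with siControl, and the difference between the lines was 2.66 (limma adjusted p 0.0898, range over 19 alternatives 0.0251 to 0.225). That difference passed with the replicate block (adjusted p 0.0251) and with array weights (0.0378). Of 20 genes of the RB and E2F axis, CDKN1A included, 1 was higher and 2 lower in HCT 116 (RBL1 at -0.77 and FOXM1 at -0.71), and in DLD1 0 passed and 3 had an unadjusted p under 0.05. Of all genes, 2.82% were higher and 4.13% lower in HCT 116. For DLD1 the all-gene shares were 0.198% passed and 10.5% with such an unadjusted p. In DLD1, CDKN1B, another kinase inhibitor, changed by 0.53 ± 0.23 (adjusted p 0.419) and TFDP1, the E2F dimer partner, by -0.51 ± 0.17 (adjusted p 0.278). The RBL1 call was lost without HCT 116 siBRG1 replicate 1 or 3 or HCT 116 siControl replicate 2 or 3 (adjusted p up to 0.074), and the FOXM1 call without HCT 116 siBRG1 replicate 2 or 3 or any HCT 116 siControl array (adjusted p up to 0.111). Averaged over both lines, 1 of the 20 was higher and 4 lower, against 4.01% and 4.68% of all genes. TFDP1 was among the 4 (-0.53 ± 0.12, limma adjusted p 0.0155). The part of replication genes and of CDKN1A in the changes of the 10 genes was not tested.

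**Figure D3:**
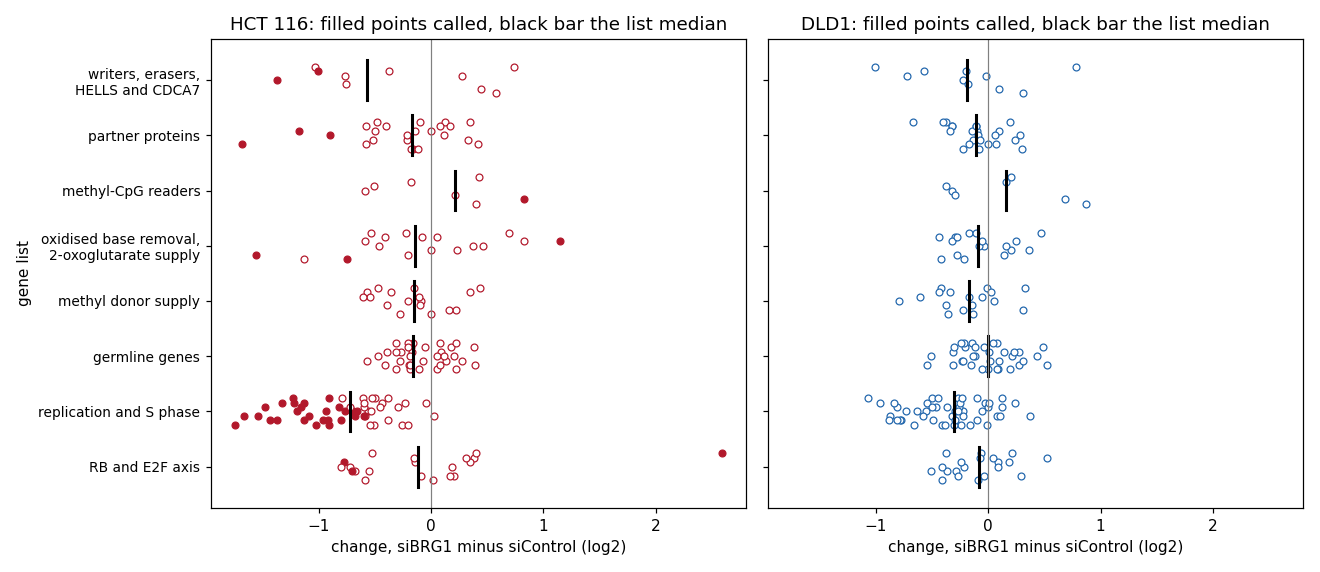
Change with siBRG1 (log2 units) of every measured gene of the 10 and of each companion list, in HCT 116 on the left and in DLD1 on the right; points are genes, filled where called (limma adjusted p under 0.05), and black bars are list medians. In HCT 116 the replication genes lie around a median of -0.73 and the germline genes around -0.16, and in DLD1 their medians are -0.31 and -0.01.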

How the data were processed

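RNA of HCT 116 and DLD1 cells was measured on 12 single-colour Affymetrix arrays. Per the submitters' processing notes, the authors used RMA and Affymetrix Power Tools, which gave the deposited log2 values; no version or genome build is given in the sources used here. On each array 94 to 112 values lie above 16, which a 16-bit scanner cannot reach in log2 units, so the deposited log2 scale holds a step that the labels do not name. The number of arrays limits the precision.

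Features were named through the array annotation: 17709 of 21448 had 1 symbol and 3739 had none. For 20 genes with several features the brightest was taken, which left 17687 genes. Groups follow titles and characteristics, also for 4 HCT 116 samples whose source name carries another number in the line name or the siRNA name. Whether those source names are errors is not stated.

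limma 3.58.1 in R 4.3.3 fitted 4 group means over 12 arrays (8 residual and 6.66 prior degrees of freedom), 2-sided, with Benjamini-Hochberg adjustment over 17687 genes and calls at an adjusted p under 0.05. Fits were tested on simulated data. The 10 genes and the 7 companion lists were chosen with earlier results of these data known. Text names the 10 genes, SMARCA4, per list and line up to 4 called genes of largest change (or 2 where none was called), and 2 genes of most similar pattern for each of the 10 that was called in a line. Alternatives were a replicate block, quantile normalization, median centring, averaging a gene's features, a filter on dim genes, each line alone, a trended robust prior, array weights, and each array left out.

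Same-numbered arrays were compared by their deviations from group means. In DLD1 the correlations were 0.486, 0.459 and 0.291, and in HCT 116 they were 0.299, 0.149 and 0.0284. Arrays of unlike number gave -0.374 to -0.0301 in DLD1 and -0.283 to 0.23 in HCT 116. The main fit paired no arrays in either line. Pairing by number entered only as the replicate block, an alternative that was run on both lines.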

Additional observations from a re-analysis of the deposited data

How the results depend on the processing

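Leaving out each of the 12 arrays in turn gave 2 to 4 lower genes of the 10 in HCT 116, 0 to 1 higher and 2 to 5 lower for the average of both lines, and 7 to 66 of all genes called in DLD1, 618 to 1271 in HCT 116, 797 to 1593 for the average and 26 to 71 for the difference between the lines. No change of the 10 genes that had been called turned its sign, and apart from these fits none of their calls was lost under any alternative in which the gene was tested.

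With the replicate number as a block, 1 of the 10 was higher (TET2, adjusted p 0.0386) and 4 were lower in HCT 116 (HELLS and CDCA7 added, adjusted p 0.0216 and 0.0318), and for the average 2 were higher (TET2 and TET3). Of all genes the block called 98 in DLD1, 2123 in HCT 116, 2476 for the average and 102 for the difference, against 35, 1230, 1536 and 59 without it. In HCT 116, replicate 1 of siBRG1 deviated most like siControl replicate 1 (r = 0.30, against -0.17 and -0.23 with the others). Replicate 2 deviated more like siControl replicate 3 (0.23 against 0.15), and replicate 3 more like siControl replicate 2 (0.04 against 0.03). Pairing by number in HCT 116 thus has mixed backing. The block changed no other call of the 10 genes than those named above and HELLS in the average (adjusted p 0.0329). Of the companion lists in HCT 116, the block gave 3 higher and 4 lower of 18 genes of oxidised base removal and 2-oxoglutarate supply, 1 lower of 17 methyl donor genes and 4 lower of 20 RB and E2F genes.

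Array weights gave 5 lower genes of the 10 in HCT 116, 1 higher for the average, and 128, 2035, 2306 and 162 of all genes in DLD1, HCT 116, the average and the difference. For the average 1 of the 10 was higher after quantile normalization (TET3, adjusted p 0.0454), after median centring (TET3, 0.0488), with genes above the median level (TET2, 0.0424) and with the trended robust prior (TET3, 0.047). Of all genes these settings called 1566, 1505, 1823 and 1705 for the average in either direction, against 1536 in the main fit. In DLD1, 4 of all genes passed when the line was fitted alone and 63 with the trended robust prior; the cause was not tested. The filter on dim genes removed DNMT3B, TET1 and TET3, which left 1 higher gene of the 10 between control arrays. Of all genes the filter called 3786 there in either direction, against 4884 without it. Signal over background limits DNMT3B and TET1 in DLD1, TET3 in the siControl arrays of both lines and DNMT3A in HCT 116 siBRG1, since no detection calls were given.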
